A study of Homo sapiens with 3 samples.

Results

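Mucins are the large, heavily glycosylated proteins of mucus and of epithelial surfaces. The genes examined were 10 secreted and membrane mucins of pancreatic cancer, listed by name, out of 20163 protein-coding genes in the annotation: MUC2, MUC5AC, MUC5B and MUC6, which encode secreted gel-forming proteins, and MUC1, MUC4, MUC13, MUC16, MUC17 and MUC20, which encode proteins of the cell membrane. A chromatin immunoprecipitation (ChIP-seq) peak was assigned to a mucin gene when it lay within 5 kb of any annotated transcription start site (TSS) of the gene or overlapped the gene itself. In all, 10 of 19039 PHF13 peaks and 7 of 21639 EZH2 peaks were assigned.

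The study mapped the binding of both proteins in PANC-1, an established line of human pancreatic ductal carcinoma. Chromatin was immunoprecipitated with an antibody to PHF13, which reads methylated histones through its PHD finger, or to EZH2, the enzyme of the Polycomb repressive complex PRC2 that methylates histone H3. The cells of every library, input chromatin included, were wild type with no treatment listed, and had been crosslinked with EGS, which joins proteins to each other, and with formaldehyde. The 3 libraries were PHF13, EZH2 and input, with 1 library per group, so no value below has a replicate check and no p-value across genes or peaks is given. Both peak lists were called against the input, whose own coverage was not analysed here.

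Secreted mucins polymerise into the gel that covers an epithelium, whereas membrane mucins keep their glycosylated part outside the cell and can signal through a short cytoplasmic tail. Both kinds carry the sugars on a stretch rich in proline, threonine and serine, which in many mucins is encoded by a long exon made of near-identical units in tandem, and the number of units differs between people and between assemblies. Read alignment, peak calling and gene annotation all meet such repeats in these genes. The cells are given as pancreatic, and the lists contain no expression values with which this could be checked.

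Most mucin peaks lay in tandem repeats. A tandem repeat was called at a summit, the position of highest coverage in a peak, when the summit lay in a stretch of at least 2.5 units of 9 to 600 bp covered by overlapping windows in which at least 75% of bases recurred 1 unit further on. By this measure, 7 of 10 PHF13 peaks and 6 of 7 EZH2 peaks of mucin genes had a repeat at the summit, against 7.23% of all PHF13 peaks and 6.59% of all EZH2 peaks. The EZH2 peak of MUC17 is the least certain of these, since only 23 of the 75 bases from its summit recurred 177 bp further on, and without it 5 of the 7 EZH2 peaks had a repeat. The repeats at mucin summits had units of 60 bp in MUC1, 69 bp in MUC2, 48 bp in MUC4, 35 bp in an intron of MUC5AC, 144 bp in a further exon of MUC5AC, 507 bp in MUC6 and 177 bp in MUC17. Where the tract reached a coding exon, the unit was a whole number of codons, 20 in MUC1, 23 in MUC2, 16 in MUC4, 169 in MUC6 and 59 in MUC17. The MUC5AC exon is noncoding in the annotation, and its unit came out differently at 70% and 85% identity. At 85% the MUC6 summits of both lists and the MUC17 summit had no repeat.

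The units below run from the summit towards higher coordinates, and they are shown because they are sequence at mucin peaks in repeats. All are GRCh37 (hg19) sequence of the coding strand, which is the minus strand for MUC1, MUC4 and MUC6. In these genes the summit is therefore at the end of the next unit, and the first unit does not hold it. Lower case marks bases that are the same in the neighbouring unit and capitals mark bases that differ. In MUC1 the first unit and the next, at the PHF13 summit, had 60 of 60 bases in common, so 1 is shown. The same held for 35 of 35 bases in the MUC5AC intron. MUC2 units had 66 of 69 bases in common. In MUC4, 46 of 48 bases were common at the EZH2 summit, 41 of 48 at the weaker PHF13 summit and 48 of 48 at the other PHF13 summit. Only 75 bases are shown of each MUC6 unit, of which 71 were common. The MUC17 unit is not shown, since the 177 bp spacing was out of register at its summit, with 23 of 75 bases in common.
MUC1 first unit, chr1:155161450-155161509: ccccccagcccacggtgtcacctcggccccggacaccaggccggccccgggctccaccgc
MUC2 first unit, chr11:1092931-1092999: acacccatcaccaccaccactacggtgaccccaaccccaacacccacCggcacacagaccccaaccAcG
MUC2 next unit, chr11:1093000-1093068: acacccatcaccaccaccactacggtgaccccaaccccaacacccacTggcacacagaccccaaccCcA
MUC4 first unit at the EZH2 summit, chr3:195511268-195511315: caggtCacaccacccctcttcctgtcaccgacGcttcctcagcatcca
MUC4 next unit at the EZH2 summit, chr3:195511220-195511267: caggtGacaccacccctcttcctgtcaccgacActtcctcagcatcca
MUC4 first unit at the weaker PHF13 summit, chr3:195507161-195507208: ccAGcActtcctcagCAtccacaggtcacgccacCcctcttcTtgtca
MUC4 next unit at the weaker PHF13 summit, chr3:195507113-195507160: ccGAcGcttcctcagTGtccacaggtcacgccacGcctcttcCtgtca
MUC5AC intron unit, chr11:1160356-1160390: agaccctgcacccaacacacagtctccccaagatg
MUC6 first unit, chr11:1017362-1017436: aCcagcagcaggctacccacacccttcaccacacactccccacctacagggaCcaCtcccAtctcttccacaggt
MUC6 next unit, chr11:1016855-1016929: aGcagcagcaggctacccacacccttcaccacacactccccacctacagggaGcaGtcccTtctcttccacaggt

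Counted by gene, mucins held peaks of both proteins. A PHF13 peak lay within 5 kb of a TSS of 6 of 10 mucin genes, compared with 21.0% of all protein-coding genes, and the same 6 genes (MUC1, MUC2, MUC4, MUC5AC, MUC6 and MUC20) were reached when peaks inside genes were added, against 31.2% of all genes. An EZH2 peak lay within 5 kb of a TSS of 4 genes, MUC1, MUC2, MUC5AC and MUC6, against 23.6% of all genes. With 1 start per gene, its 5′ end, the counts were 3 of 10 for PHF13 and 1 of 10 for EZH2, against 14.6% and 18.6% of all genes, so that EZH2 went from above to below the share of all genes. With peaks inside genes the count for EZH2 was 7, adding MUC4, MUC16 and MUC17, against 30.0% of all genes. Peaks of both lists were found in or near 5 mucin genes (MUC1, MUC2, MUC4, MUC5AC and MUC6), against 12.6% of all genes. MUC5B and MUC13 had no peak of either list. Of the peaks near a TSS, the one farthest from it was a PHF13 peak 3171 bp from MUC5AC, and the closest of those beyond 5 kb, which were assigned because they lay inside the gene, were a PHF13 peak of MUC20 at 5301 bp and an EZH2 peak of MUC4 at 5445 bp.

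Mucin peaks were somewhat stronger and wider than the typical peak of their list. The median fold enrichment was 3.83 over the 10 PHF13 peaks and 3.41 over all PHF13 peaks, and 4.61 over the 7 EZH2 peaks and 3.13 over all EZH2 peaks. The median −log10 q was 9.44 against 3.57 for PHF13 and 9.08 against 3.99 for EZH2, and the median width 247 bp against 188 bp and 309 bp against 216 bp. The PHF13 peaks with a repeat had a median fold enrichment of 4.25, compared with 3.53 for the 3 without one, and the 6 EZH2 peaks with a repeat had 4.97, compared with 3.55 for the 1 without. With so few peaks of 1 library each, these medians are a description of the lists.

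The gene counts rested on the repeats. Leaving out the peaks with a tandem repeat at the summit, a choice made after the data were seen, left 2 of 10 mucin genes with a PHF13 peak near a TSS and 0 with an EZH2 peak, where 20.5% and 23.2% of all genes kept one. Near a TSS or in the gene, 2 mucin genes kept a PHF13 peak and 1 kept an EZH2 peak, against 30.5% and 29.5% of all genes. The share of mucin genes outside repeats was thus at or below that of all genes. Whether the peaks in repeats reflect binding or how reads were placed in repeats was not tested.

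**Figure D1:**
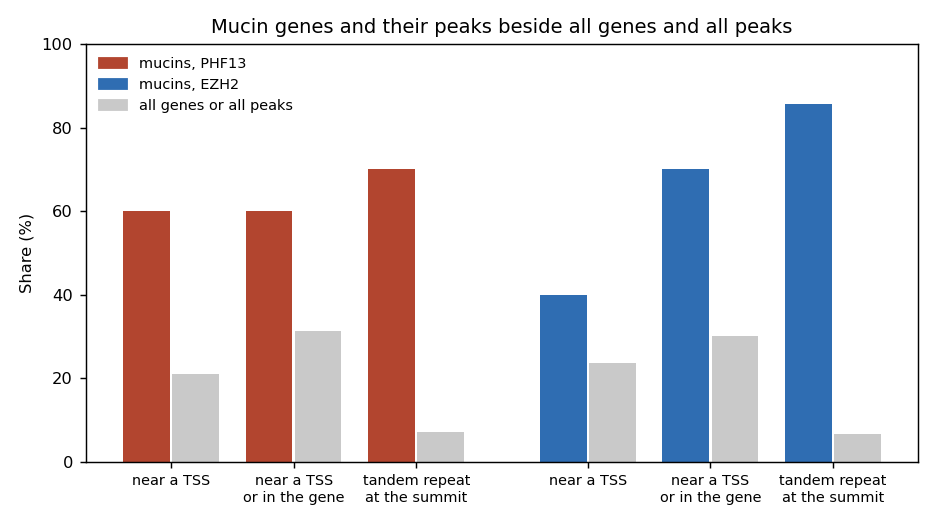
Bars give the share in percent of mucin genes with a peak near a TSS, or near a TSS or in the gene (n = 10 genes), and of mucin peaks with a tandem repeat at the summit (10 PHF13 and 7 EZH2 peaks), with grey bars for all 20163 genes or all peaks of the same list. The repeat shares stand furthest from their grey bars, which are at 7.23% and 6.59%.

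MUC2, MUC5AC, MUC6 and MUC5B lie next to each other on chromosome 11 and form the cluster of secreted gel-forming mucins. MUC2, the main mucin of the intestine, had 1 peak of each list in its repeat. The PHF13 peak (chr11:1092811-1093455) reached a fold enrichment over the local background of 7.41 with a −log10 q of 52.2, and the EZH2 peak (chr11:1092807-1093448) a fold enrichment of 5.32 with a −log10 q of 31.4. Its summit held 106 PHF13 fragments (95% Poisson interval 86.8 to 128) over a background of 13.4, and 86 EZH2 fragments (68.8 to 106) over 15.3. These intervals cover counting error only, and since a peak is called for exceeding its background, every peak stands above it by selection. The summits were 8 bp apart and the peaks had 638 bp in common. In the annotation mapped to this assembly the peaks fell between the mapped pieces of the transcripts, 17936 bp and 17932 bp downstream of the start of the gene, and counted as near a TSS because a mapped piece starts there.

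MUC6, the gel-forming mucin of gastric glands and of pancreatic ducts, had the widest mucin peaks. The PHF13 peak (chr11:1016656-1018035) spanned 1380 bp and was enriched 5.59-fold (−log10 q 35.5). The EZH2 peak (chr11:1016620-1018002) spanned 1383 bp and was enriched 5.35-fold (−log10 q 25.0). Only 0.163% of PHF13 peaks and 4.61% of EZH2 peaks were at least as wide. The summits, 20 bp apart, held 93 PHF13 fragments (75.1 to 114) over a background of 15.8 and 68 EZH2 fragments (52.8 to 86.2) over 11.9. Both lay in coding exon 31, in a repeat of 2334 bp, 18683 bp and 18716 bp downstream of the start of the gene, and were near a TSS only through another transcript, 503 bp and 467 bp away.

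MUC5AC, a gel-forming mucin of airway and stomach that is known as a marker of pancreatic precursor lesions, had the strongest mucin peaks of both lists by fold enrichment. The PHF13 peak (chr11:1212805-1213557) reached 9.11 with a −log10 q of 43.3, rank 160 by fold enrichment among 19039 peaks. The EZH2 peak (chr11:1212790-1213529) reached 9.46 with a −log10 q of 47.0, rank 128 among 21639 peaks. Their summits were 30 bp apart and held 74 PHF13 fragments (58.1 to 92.9) over a background of 7.23 and 78 EZH2 fragments (61.7 to 97.3) over 7.35. The peaks began 45 bp and 30 bp from the first base after a gap of 50000 bp in the assembly (chr11:1162760-1212759), which lies inside the gene. They lay in a noncoding exon of 1 transcript, whose mapped start at the edge of the gap is also the TSS that brought them within 5 kb, while the start of the gene was 61225 bp and 61210 bp away. The part of the sequence missing from the assembly in these peaks was not tested.

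MUC5AC also had 2 further PHF13 peaks with no EZH2 peak beside them. One lay in an intronic repeat of 35 bp units (chr11:1160218-1160457, fold enrichment 4.25, −log10 q 9.86, 37 fragments over a background of 7.95). The other was the only mucin peak upstream of a gene start, 3171 bp from it (chr11:1147879-1148409). It was enriched 3.53-fold (−log10 q 11.0), with 53 fragments (39.7 to 69.3) over a background of 14.3, and all 77 of the 24-base sequences at its summit occurred once in the genome. Of the 200 bp at its summit, a search of both strands found 2 copies of the AP-1 motif TGACTCA, 37 bp and 78 bp from the summit, shown here in capitals with 20 bases on each side on the plus strand.
MUC5AC upstream site A, chr11:1148000-1148046: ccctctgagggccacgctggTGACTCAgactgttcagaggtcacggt
MUC5AC upstream site B, chr11:1148041-1148087: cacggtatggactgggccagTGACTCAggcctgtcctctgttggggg

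TGACTCA, or TGAGTCA, which is the same site read on the other strand, was present within 200 bp at the summit of 11.2% of all PHF13 peaks and 2.31% of all EZH2 peaks. Among the 10 PHF13 peaks of mucin genes it was found in this 1, and among the 7 EZH2 peaks in 0. A motif match describes the letters in the window and is no measure of binding of the factor.

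MUC5B, the main gel-forming mucin of the airways, had 4 repeat tracts of 340 to 780 bp but no peak. The nearest EZH2 peak lay 8304 bp from the gene and the nearest PHF13 peak 30739 bp from it.

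**Figure D2:**
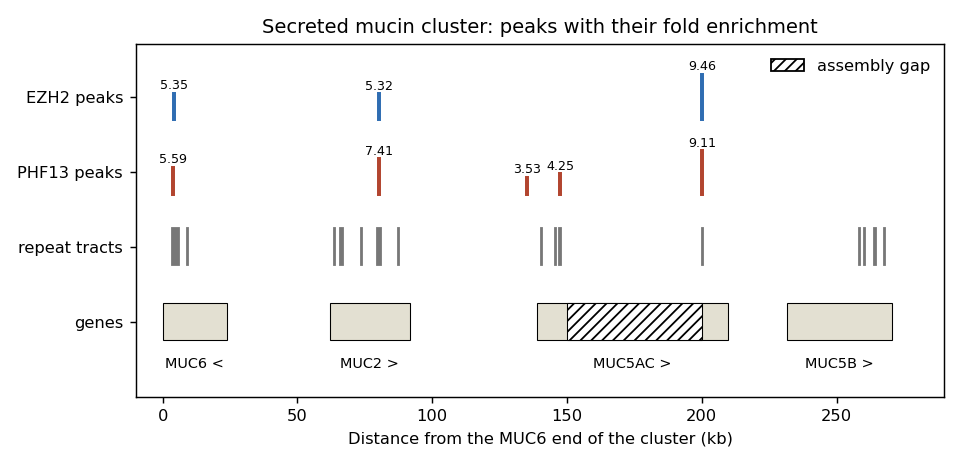
The secreted mucin cluster of chromosome 11 is drawn by distance in kb from the MUC6 end, with the direction of each gene marked by an arrowhead, the assembly gap hatched, repeat tracts of at least 300 bp as grey bars, and peaks as lines whose height and number give the fold enrichment. PHF13 and EZH2 peaks stand at the same 3 places, in MUC6, MUC2 and beside the gap in MUC5AC, and MUC5B has none.

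Among the membrane mucins, MUC1, a signalling mucin of most glandular epithelia, had 1 peak of each list. The PHF13 peak (chr1:155161267-155161520) was enriched 4.08-fold (−log10 q 9.02), with 36 fragments (25.2 to 49.8) over a background of 8.08. The EZH2 peak (chr1:155161263-155161571) was enriched 4.61-fold (−log10 q 9.08), with 29 fragments (19.4 to 41.6) over 5.50. The summits were 44 bp apart, and the whole PHF13 peak lay inside the EZH2 peak. Both were 1187 bp and 1136 bp downstream of the start of the gene, inside a repeat tract of 1002 bp. The tract reached a coding exon, but the summits were placed in an intron by all 21 mapped transcripts that cover them. The mapped annotation does not give this repeat as a long coding exon, so the intron call follows the mapped models only. At 82.0% and 80.8% GC over 500 bp, they were the most GC-rich of the mucin peaks, where the median of all peaks was 46.0% for PHF13 and 49.6% for EZH2. The MUC1 peaks were also within 5 kb of a TSS of THBS3, THBS3-AS1, MIR92B and the unnamed gene ENSG00000273088.

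MUC4, a large membrane mucin that pairs with the receptor ERBB2, had 3 peaks in coding exon 2, within a repeat of 10076 bp. The PHF13 peaks (chr3:195507037-195507242 and chr3:195511787-195511963) had fold enrichments of 3.18 and 3.20 with −log10 q of 3.84 and 5.18. The EZH2 peak (chr3:195511126-195511290) was enriched 2.92-fold (−log10 q 3.56). Summits held 25 and 32 PHF13 fragments over backgrounds of 7.17 and 9.32, and 25 EZH2 fragments over 7.89. The peaks of the 2 lists did not overlap in MUC4. They lay 26881 to 31602 bp downstream of the start of the gene, and 1 PHF13 peak was within 5 kb of a TSS, that of another transcript.

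MUC17, a membrane mucin of the intestinal brush border, held the longest repeat of all, 10932 bp in coding exon 3, and a single weak EZH2 peak (chr7:100679298-100679458). Its fold enrichment was 2.92 with a −log10 q of 3.06 and 22 fragments (13.8 to 33.3) over a background of 6.89. It ranked 13942 of 21639 EZH2 peaks by fold enrichment. The 2 longest mucin repeats, in MUC17 and MUC4, thus held the lowest folds among mucin peaks with a repeat.

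MUC16 and MUC20 had peaks outside repeats only. MUC16, the gene of the tumour antigen CA125, had an EZH2 peak in an intron 9718 bp downstream of its start (chr19:9111078-9111348, fold enrichment 3.55, −log10 q 4.13, 20 fragments over 4.92). MUC20, a small membrane mucin known to bind the receptor MET, had 2 PHF13 peaks, the first of them 180 bp downstream of its start (chr3:195447935-195448082, fold enrichment 3.59, −log10 q 4.21, 22 fragments over 5.41). The other lay in an intron 10787 bp downstream (chr3:195458542-195458773, fold enrichment 2.96, −log10 q 2.32, 18 fragments over 5.43) and had the lowest fold enrichment of the PHF13 mucin peaks. At the first MUC20 summit, 53 of 77 of the 24-base sequences also occurred outside MUC20, so its fragments may be shared with a near-identical copy and the peak is uncertain.

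MUC13, a membrane mucin of stomach and intestine, had neither a peak nor a repeat tract of at least 300 bp. The nearest PHF13 peak lay 3945 bp beyond the 3′ end of the gene, and the nearest EZH2 peak was 258210 bp away.

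**Figure D3:**
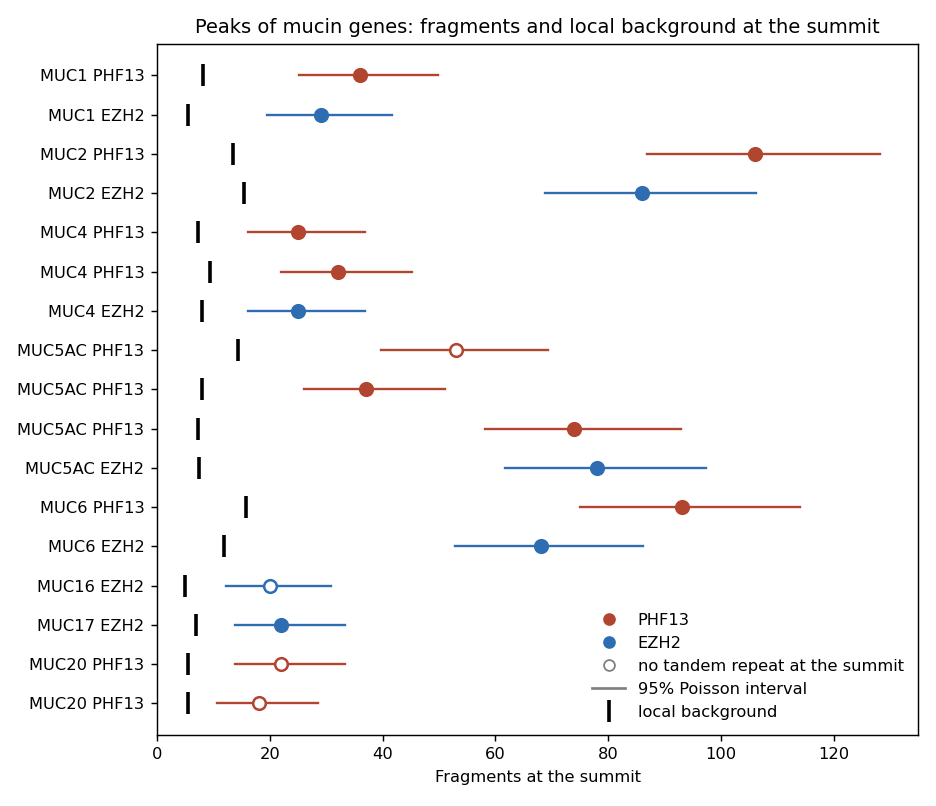
Points give the fragments at the summit of each of the 17 mucin peaks, by gene and antibody, with 95% Poisson intervals for counting error, black ticks for the local background and open points for summits with no tandem repeat. Peaks were called for exceeding the background, so points above it are given by selection, and MUC2, MUC6 and the exon of MUC5AC hold between 68 and 106 fragments.

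Within the repeats, PHF13 and EZH2 peaks coincided in 4 genes. In MUC1, MUC2, MUC6 and the MUC5AC exon the peaks overlapped, with 82.2% to 100% of each peak in common and 8 to 44 bp between summits. This made 4 of 10 PHF13 mucin peaks and 4 of 7 EZH2 mucin peaks that overlapped a peak of the other list, against 11.7% of all PHF13 peaks and 10.3% of all EZH2 peaks. All 8 overlapping peaks had a repeat at the summit, and of the 4 mucin peaks without one, none overlapped a peak of the other list. Both lists were called against the same input, so their values are not independent of each other.

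The input is seen in these lists only through the local background. The lowest background in each list was 4.23 fragments for PHF13 and 4.42 for EZH2. This floor was taken as the genome-wide mean that MACS2 uses as its lowest background. At all 17 mucin summits the background exceeded the floor, as it did at 79.8% of all PHF13 summits and 85.2% of all EZH2 summits. It was 3.74 times the floor at the MUC6 PHF13 summit, 3.47 times at the MUC2 EZH2 summit and 3.18 times at the MUC2 PHF13 summit. At the PHF13 peak upstream of MUC5AC, which has no repeat, it was 3.38 times. The strongest peaks, those of the MUC5AC exon, stood over a background of 1.71 times the floor for PHF13 and 1.66 times for EZH2.

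Copies of the sequence were counted in the same windows. Of the 10 PHF13 peaks, 2 were single-copy (the upstream peak of MUC5AC and the intron peak of MUC20), meaning that the median 24-base sequence in the 100 bp at the summit occurred once in the genome, against 65.6% of all PHF13 peaks. Of the 7 EZH2 peaks 2 were single-copy, those of MUC16 and MUC17, against 67.9% of all EZH2 peaks. At the 13 summits with a repeat, every 24-base sequence that occurred more than once had all its copies inside the same gene. The median number of copies there ran from 1 at MUC17 to 28 at the stronger PHF13 peak of MUC4, with 10 and 9 at the MUC1 summits.

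Across the gene bodies, 29 repeat tracts of at least 300 bp were found in 9 of the 10 genes and made up 9.42% of their known sequence. Yet 7 of the 9 PHF13 peaks and 6 of the 7 EZH2 peaks whose summits lay inside a gene fell in them. By gene the share of sequence in tracts ran from 28.2% in MUC17, 25.3% in MUC4 and 22.7% in MUC1 to 1.17% in MUC16 and 0 in MUC13. Of the tracts, 7 held a peak, 5 of them peaks of both lists, 1 only of PHF13 and 1 only of EZH2. The 7 had a median length of 1459 bp and a median identity between neighbouring units of 78.8%, compared with 494 bp and 72.5% for the 22 tracts with no peak. Length alone did not separate them, since a MUC4 intron tract of 2937 bp with 85.6% identity held no peak, and the MUC5AC exon tract of 472 bp held peaks of both lists.

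**Figure D4:**
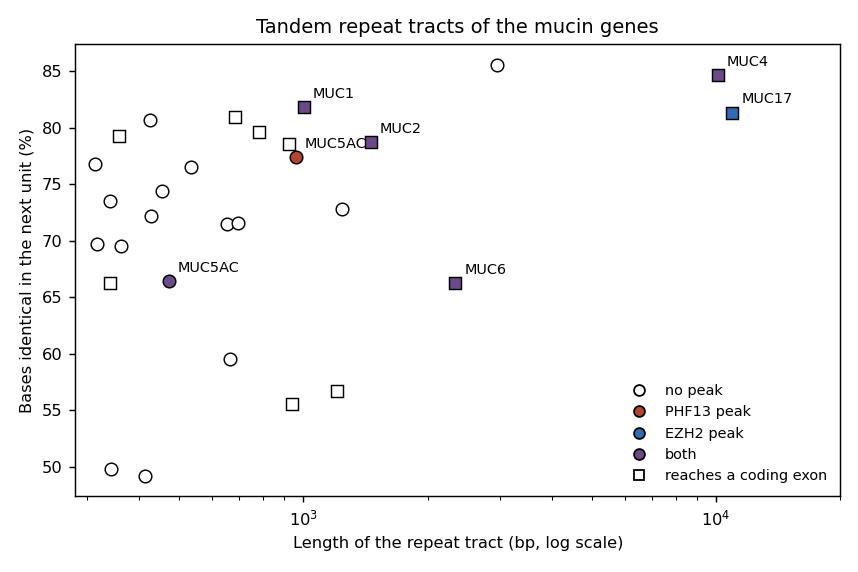
Each point is 1 of the 29 repeat tracts of mucin genes, placed by its length in bp on a log scale. The other axis is the percent of bases identical in the next unit, over the whole tract at 1 named unit length. Filled points are tracts that held a peak and squares are tracts that reach a coding exon. The longest tracts, in MUC17 (10932 bp) and MUC4 (10076 bp), held a peak, and most of the short ones did not.

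**Figure D5:**
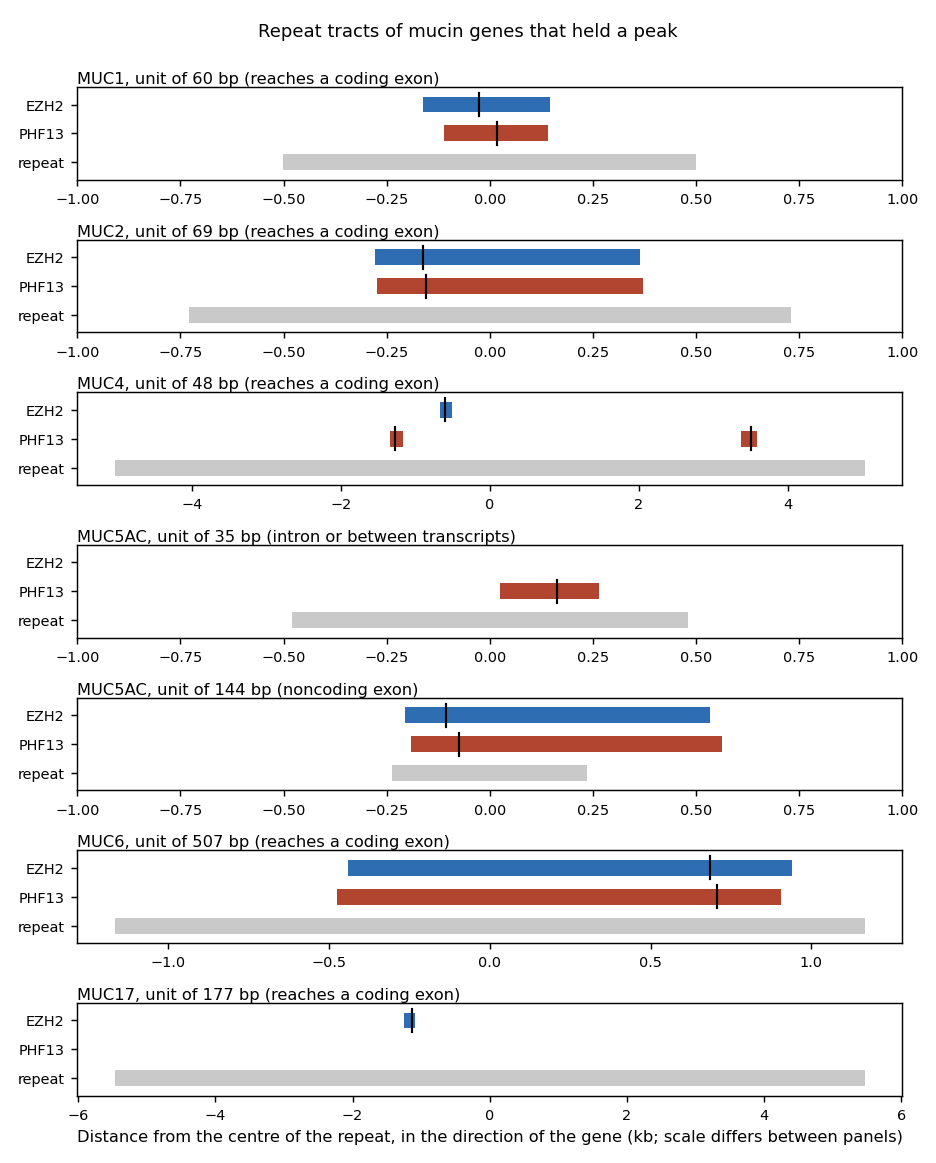
For the 7 tracts with a peak, the repeat (grey), the PHF13 peaks (red) and the EZH2 peaks (blue) are drawn by distance in kb from the centre of the repeat in the direction of the gene, with black lines at the summits and a separate scale in each panel. In MUC1, MUC2, MUC6 and the MUC5AC exon the 2 antibodies give nearly the same interval, whereas in MUC4 they do not overlap.

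Most long tandem repeats in coding sequence held no peak. Coding exons of any gene were merged to blocks of at least 300 bp, and 126 of these had a tandem repeat tract of 1 kb or more, 88 of them in zinc finger genes. Of the 126, a PHF13 peak was found in 3.97% and an EZH2 peak in 7.14%, and among blocks with no tract in 1.88% and 4.42%. None of the blocks with a long tract and a peak was in a zinc finger gene. Apart from the mucin genes examined here, the PHF13 peaks were in RRBP1, HRNR and MUC21, which is another mucin. The EZH2 peaks were in ACAN, C2orf16, NPIPB4, NPIPB5, NPIPB12 and NPIPB13. Among the 126 were 3 blocks of the mucin genes examined here, in MUC4, MUC6 and MUC17. Of these, 2 held a PHF13 peak and 3 an EZH2 peak. MUC4 and MUC6 were the 2 blocks of the 126 that held peaks of both lists. The repeats of MUC1, MUC2 and MUC5AC are not counted here, since the mapped annotation does not give them as long coding exons. A MUC16 tract of 1208 bp in a coding exon, which held no peak, is not counted either, since it was shorter than 1 kb at the single unit length used for these blocks.

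The starts of the mucin genes had few CpGs. The CpG observed/expected ratio over 500 bp at the gene start had a median of 0.32 over the 10 genes, compared with 0.72 over all protein-coding genes, at a similar GC content (63.6% and 61.6%). It exceeded 0.6 in 1 of the 10 genes, MUC6 at 0.62, and in 60.6% of all genes. Within 5 kb of the gene's own start, the PHF13 peaks were those of MUC1, MUC5AC and MUC20 and the EZH2 peak that of MUC1.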

How the data were processed

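ChIP-seq peak lists of PHF13 and EZH2 from PANC-1 cells were used, 1 library per antibody. According to the methods and processing notes, the authors trimmed with Trim Galore 0.4.1 and aligned to hg19 using Bowtie2 2.4.1 at its defaults. Mapped pairs were kept, Picard took out duplicates, and MACS2 2.2.7.1 called peaks over the input. The sources name no mapping-quality filter, and Bowtie2 then gives a read that fits several repeat units equally well to 1 of them, and how this bears on peaks in repeats was not tested. The authors deposited the fold enrichment, a ratio at the summit, and p and q on the −log10 scale. The deposited score follows from q and was not used. The lists reached a −log10 q of 1.30, a looser limit than the one given in the methods for PHF13, and EZH2 peaks are narrow in the deposited list but broad in the methods. Both were used whole.

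Fragments and background at each summit were solved from fold enrichment and p (relative error under 0.0001, 1 solution for 100% of peaks), with exact Poisson intervals. The number of reads per library is unknown from the lists. Genes and starts were from GENCODE release 44 mapped to GRCh37, and sequences from that genome, since the RefSeq promoter table is on another build. The tandem repeat scan named the shortest unit that gave at least 80% of the longest tract, and a unit may be a multiple of a shorter one. Fragment solution and scan were tested on simulated data. Analyses used Python 3.11.15, numpy 2.4.6, pandas 2.3.3, scipy 1.17.1, pysam 0.24.0 and numba 0.67.0. No test across genes or peaks was made, and counts stand beside the same count over all genes or peaks. Members and gene lists were chosen with earlier results of these data known. All 10 members are named. Of 3 further lists, those genes are named that had peaks of both lists within 5 kb of a TSS, with up to 3 per list and antibody of highest fold enrichment. Genes whose long coding repeat held a peak are also named, with MUC21 of these lists among them. The unit sequence of the MUC5AC exon repeat is not reported here.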

Additional observations from a re-analysis of the deposited data

How the results depend on the processing

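Of 52 alternative values, 35 were within 1.5 times the reported count and 17 were not; the cause of the others was not tested beyond what each alternative removes. With single-copy peaks only, mucin genes with a peak near a TSS numbered 1 for PHF13 and 0 for EZH2. The shares of all genes were 18.1% and 20.6%. Those with a peak near a TSS or in the gene numbered 2 and 2, against 26.6% and 25.7% of all genes. Assigned peaks numbered 2 and 2. Without tandem repeats at the summit (added after the data were seen) the same counts were 2 and 0, 2 and 1, and 3 and 1. The shares of all genes were then 20.5% and 23.2% near a TSS, and 30.5% and 29.5% near a TSS or in the gene. With 1 start per gene, PHF13 peaks lay near it in 3 genes and EZH2 peaks in 1, against 14.6% and 18.6% of all genes. A limit of 10 kb raised EZH2 genes near a TSS to 7, against 29.8% of all genes. A −log10 q of at least 5 left 4 EZH2 genes near a TSS or in the gene, against 16.4% of all genes, and 4 EZH2 peaks. Also added after the data were seen, 70% or 85% identity between units gave 7 or 6 PHF13 peaks and 6 or 4 EZH2 peaks with a repeat at the summit. Of all PHF13 peaks, 8.02% or 4.32% had a repeat at these limits, and of all EZH2 peaks 7.27% or 4.02%. The limits are 1 library per antibody, summits of 18 to 106 fragments, and an assembly whose repeats may differ in length from those of PANC-1, which was not tested. No paired analysis was possible because each antibody has 1 library and no result comes from a test.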

Other observations

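Genes related to mucins were counted in the same way, with the shares of all genes (PHF13 21.0% and EZH2 23.6% within 5 kb of a TSS, 31.2% and 30.0% near a TSS or in the gene) beside them. Of 24 enzymes of mucin-type O-glycosylation, 12 had an EZH2 peak and 4 a PHF13 peak near a TSS. With peaks inside genes the counts were 12 for EZH2 and 11 for PHF13, so that PHF13 went from below to above the share of all genes. GALNT3, which starts O-glycan chains on serine and threonine, had the highest EZH2 fold enrichment of the list, 4.24 over a peak of 1536 bp that covers its start. GALNT18 followed with 4.02 and GCNT1, which branches the chains, with 3.95. For PHF13, GALNT10 reached 4.39, ST6GALNAC2, a sialyltransferase, 3.28 and B3GNT6, which makes the core 3 glycan, 3.11. Peaks of both lists lay near a TSS of GALNT14, B3GNT6 and ST6GALNAC2. None of these peaks had a tandem repeat at the summit, but the median 24-base sequence at the PHF13 summits of ST6GALNAC2 and B3GNT6 occurred 40 and 12 times in the genome.

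Of 19 genes of mucus secretion and its regulation, 9 had an EZH2 peak and 5 a PHF13 peak near a TSS, and 9 and 6 had one near a TSS or in the gene. The endodermal transcription factors FOXA3 (EZH2 fold enrichment 5.78, 61 fragments over 9.73), GATA4 (4.01) and CDX2 (3.79) led for EZH2, and the FOXA3 and CDX2 peaks spanned 1701 bp and 1872 bp. For PHF13 the highest were AGR2, which folds mucins in the endoplasmic reticulum (3.59), SPDEF, a goblet cell transcription factor (3.20), and FOXA2 (3.08). FCGBP, a mucus protein, had peaks of both lists at fold enrichments of at most 1.75 for PHF13 and 1.64 for EZH2, over backgrounds of 59.6 to 89.6 and 84.9 to 130 fragments, far above those at the mucin genes.

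Of 11 other mucins, PHF13 peaks lay near a TSS of 5 and EZH2 peaks near that of 3, and the counts were the same with peaks inside genes. MUC3A, a membrane mucin next to MUC17, had peaks of both lists in a 51 bp repeat, with 52 PHF13 fragments over a background of 6.45 (fold enrichment 7.11) and 64 EZH2 fragments over 13.9 (4.37). MUC12 and MUC3A were both within 5 kb of the PHF13 peak at 5.23 and the EZH2 peak at 2.42. CD164 had a PHF13 peak at 4.09 and MCAM an EZH2 peak at 2.86.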
